A study of Mus musculus with 2 samples.

Results

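The 8 genes Ccr7, Ccr6, Cxcr4, Cxcr5, Gpr183, Cxcr3, Ccr9 and Cmklr1, of 31053 genes counted, encode chemokine and oxysterol receptors of B cells. They were chosen by name, with earlier results of these data known, and with a rule that uses no measured value of theirs. They were measured in B cells of the heart of C57BL6/J mice, sorted as live cells by flow cytometry after perfusion and digestion of the organ. The neonatal library came from 6 mice of 2 weeks of age, males and females pooled, whose sample title gives 15 days, and the adult library from 6 mice of 8 weeks, labelled male. Neither group carried a transgene or received a treatment. Within an age the cells were stained in 2 tubes of 3 hearts each and then pooled, so there was 1 library per age. No value has a replicate check, no test across samples could be made, and age and library cannot be told apart. Sex differed between the libraries too, and ratios are also given with only the 1279 neonatal cells that held UMIs of Y-linked genes and none of Xist. The single-cell 3′ method used counts unique molecular identifiers (UMIs), each of which marks 1 captured mRNA molecule.

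Chemokine receptors are G protein-coupled receptors that steer leukocytes along gradients of small secreted proteins, and they signal mainly through the inhibitory G protein Gi to the integrins and the actin cytoskeleton. In B cells CCR7 and CXCR5 direct entry into lymph nodes and their follicles, CXCR4 holds cells near CXCL12 in bone marrow and in the dark zone of germinal centers, and GPR183 (EBI2) reads the oxysterol 7α,25-dihydroxycholesterol and positions cells at the outer follicle. CCR6, CXCR3 and CCR9 answer CCL20, the interferon-induced CXCL9 and CXCL10, and the gut and thymus chemokine CCL25, while CMKLR1 binds chemerin and is better known from macrophages and plasmacytoid dendritic cells.

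Droplets with at least 2000 gene UMIs, at most 10% mitochondrial UMIs and at least 1 UMI of Cd79a, a chain of the B cell receptor complex, were used as cells. This gave 2077 neonatal cells with 16403180 UMIs and 3611 adult cells with 34623240 UMIs. Neonatal cells had a median depth of 6000 UMIs and adult cells one of 6131 UMIs, with upper quartiles of 8204 and 11137 UMIs. Levels are given as CPM, the UMIs of a gene per 1000000 UMIs of the cells. The 7 B cell marker genes summed to 18496 CPM in the neonatal and 20395 CPM in the adult cells. The highest of them, Cd74, stood at 10411 and 13621 CPM. Cd79b and Ms4a1 went the other way, at 1800 and 1347 CPM in the neonatal and 1263 and 1154 CPM in the adult cells. Of the markers of other cells, the 8 macrophage and monocyte genes summed to 116 CPM in the neonatal and 27.2 CPM in the adult cells, and the 8 T cell genes to 19.3 CPM, with Cd4 at 0, and 26.3 CPM. The 5 NK cell genes summed to 3.72 CPM, with Ncr1 and Gzma at 0, and to 5.72 CPM. The 5 neutrophil genes summed to 25.1 CPM, with Camp at 0, and were all at 0 in the adult cells. The 5 endothelial genes summed to 137.4 CPM, with Tie1 at 0, and to 117.0 CPM, with Kdr and Tie1 at 0. Of these sums Pecam1 alone made 136.7 and 116.3 CPM. At least 2 endothelial UMIs were present in 27.7% of the neonatal and 25.4% of the adult cells. The 2 libraries shared 2 barcodes among these cells, and leaving them out moved no level of a receptor beyond its counting interval. Doublets were not called.

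RefSeq promoter windows of the GRCm38.p6 build, from 250 bases before to 50 bases after a start site, existed here for 6 of the 8 receptors; Ccr7 and Cxcr5 have none in the table. They are given 5′ to 3′ on the strand of the gene for the 3 of these receptors whose level differed by at least 1.5-fold between the libraries, and in capitals are matches, on either strand, to 5 motifs picked after the levels had been seen. Ccr6 has 2 windows, at chr17:8235793-8236092 and chr17:8242276-8242575 on the plus strand, Cxcr3 has 1 at chrX:101734098-101734397 on the minus strand, and Ccr9 has 1 at chr9:123766961-123767260 on the plus strand.
Ccr6, first window: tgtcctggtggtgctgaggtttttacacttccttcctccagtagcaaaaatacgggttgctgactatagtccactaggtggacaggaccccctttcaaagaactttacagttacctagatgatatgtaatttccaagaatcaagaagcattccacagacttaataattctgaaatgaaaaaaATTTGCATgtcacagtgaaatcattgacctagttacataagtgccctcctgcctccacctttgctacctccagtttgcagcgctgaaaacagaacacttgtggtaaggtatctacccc
Ccr6, other window: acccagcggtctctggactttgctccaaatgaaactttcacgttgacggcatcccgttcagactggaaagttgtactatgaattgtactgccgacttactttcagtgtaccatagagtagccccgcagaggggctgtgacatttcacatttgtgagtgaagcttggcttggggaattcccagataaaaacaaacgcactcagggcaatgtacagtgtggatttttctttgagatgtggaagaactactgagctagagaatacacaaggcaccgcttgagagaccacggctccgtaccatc
Cxcr3: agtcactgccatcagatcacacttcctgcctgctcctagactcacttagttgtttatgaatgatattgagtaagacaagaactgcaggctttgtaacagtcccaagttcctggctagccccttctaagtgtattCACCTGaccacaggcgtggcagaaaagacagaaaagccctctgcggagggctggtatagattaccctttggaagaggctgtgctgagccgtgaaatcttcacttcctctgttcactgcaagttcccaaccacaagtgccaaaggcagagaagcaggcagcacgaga
Ccr9: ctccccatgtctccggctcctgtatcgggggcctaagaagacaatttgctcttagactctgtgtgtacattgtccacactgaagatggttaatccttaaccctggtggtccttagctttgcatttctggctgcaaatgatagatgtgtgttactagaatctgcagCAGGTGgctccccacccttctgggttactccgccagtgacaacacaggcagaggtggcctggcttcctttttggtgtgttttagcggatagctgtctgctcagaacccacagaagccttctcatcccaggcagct

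In the first Ccr6 window the capitals mark the octamer ATGCAAAT read on the other strand, the motif of POU factors of B cells, which occurs in 1.74% of all 32851 promoter windows of this length. The Cxcr3 and Ccr9 windows each hold 1 match to the E box CAGGTG, which occurs in 20.2% of windows. The other motifs searched were the FOXO core TGTTTAC, the GC box GGGCGG and TATAAA, which occur in 3.65%, 35.7% and 13.6% of windows and have no match in these 4 windows, and the other Ccr6 window matched none of the 5. The libraries hold no readout of promoters, so these matches describe letters only.

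Ccr7 and Cxcr5, the receptors for entry into lymphoid tissue, were higher in the neonatal library, and Ccr6 and Cxcr3 were higher in the adult library, while Gpr183 and Cxcr4 differed by less than 1.5-fold. Of the 7 receptors with at least 50 UMIs over both libraries, 2 were at least 1.5-fold higher in the adult cells, against 7.82% of the 10703 genes tested in the same way, and 3 were at least 1.5-fold lower, against 12.2%. The median log2 ratio of adult over neonatal was −0.45 over these 7 receptors and −0.13 over all genes tested. Against the male neonatal cells alone, the counts of receptors called were also 2 and 3, and the shares of all genes were not computed there. The log2 ratios were −1.16 for Ccr7, −0.67 for Cxcr5 and −1.39 for Ccr9, and Ccr6 and Cxcr3 were the 2 higher in the adult. For Cxcr3 this rested on at most 2 neonatal UMIs. All intervals given with the levels are exact 95% intervals that cover counting error only, and levels were compared between cells and libraries, not between genes.

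Ccr7 (chr11:99144196-99155077, minus strand, GRCm38), the receptor for CCL19 and CCL21, stood at 1103 CPM in the neonatal cells, from 18092 UMIs, and at 471 CPM in the adult cells, from 16306 UMIs. The level was 2.34-fold higher in the neonatal library, a log2 ratio of adult over neonatal of −1.23 (−1.26 to −1.20). Cxcr5 (chr9:44511787-44561877, minus strand), the receptor for CXCL13, stood at 214 CPM in the neonatal and 133 CPM in the adult cells, 1.61-fold higher in the neonatal library, with a log2 ratio of −0.69 (−0.75 to −0.62). Scaled by the median ratio of all genes it was −0.55, under 1.5-fold. The gene overlaps Bcl9l on the opposite strand in the annotation, as Gpr183 does Ubac2. Both homing receptors thus lay on the same side, and neither ratio changed sign under the other ways of choosing cells and of scaling that were tried.

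Gpr183 (chr14:121952551-121965195, minus strand), the oxysterol receptor, stood at 223 CPM in the neonatal and 259 CPM in the adult cells, a log2 ratio of 0.22 (0.16 to 0.27). Cxcr4 (chr1:128588199-128592293, minus strand), the receptor for CXCL12, stood at 400.3 CPM in the neonatal and 293 CPM in the adult cells, a log2 ratio of −0.45 (−0.50 to −0.41). These were the smallest differences among the receptors measured with enough UMIs. Gpr183 is in the list of genes that the study chose on these libraries for the CD21+CD23+ subset, so its direction is not independent evidence.

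Ccr6 (chr17:8236043-8257141, plus strand), the receptor for CCL20, stood at 22.9 CPM in the neonatal cells, from 375 UMIs, and at 64.3 CPM in the adult cells, from 2228 UMIs. The level was 2.81-fold higher in the adult library, a log2 ratio of 1.49 (1.33 to 1.65). Of the 7 receptors tested, only Ccr6, Cxcr3 and Gpr183 had ratios above 0.

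Cxcr3 (chrX:101731535-101734269, minus strand), a receptor of activated and memory lymphocytes, had 2 UMIs in 2 neonatal cells and 135 UMIs in 67 adult cells, 0.122 and 3.90 CPM. The ratio was 32.0 with a counting interval of 8.68 to 267. The gene is X-linked, and against the male neonatal cells alone the log2 ratio was 5.38. Ccr9 (chr9:123678439-123784330, plus strand), the receptor for CCL25, had 49 UMIs in 21 neonatal cells and 46 UMIs in 22 adult cells, 2.99 and 1.33 CPM, a log2 ratio of −1.17 (−1.78 to −0.56). Its annotated span overlaps Slc6a20a on the opposite strand and the noncoding gene Gm17200 on its own strand, so that reads in shared parts are uncertain. Cmklr1 (chr5:113612354-113650426, minus strand) had 2 UMIs in 1 neonatal cell and 0 in the adult cells, and no fold is given. By the limit of 3 counts the adult 0 allows up to 0.0866 CPM, with an exact 95% upper bound of 0.107 CPM.

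**Figure D1:**
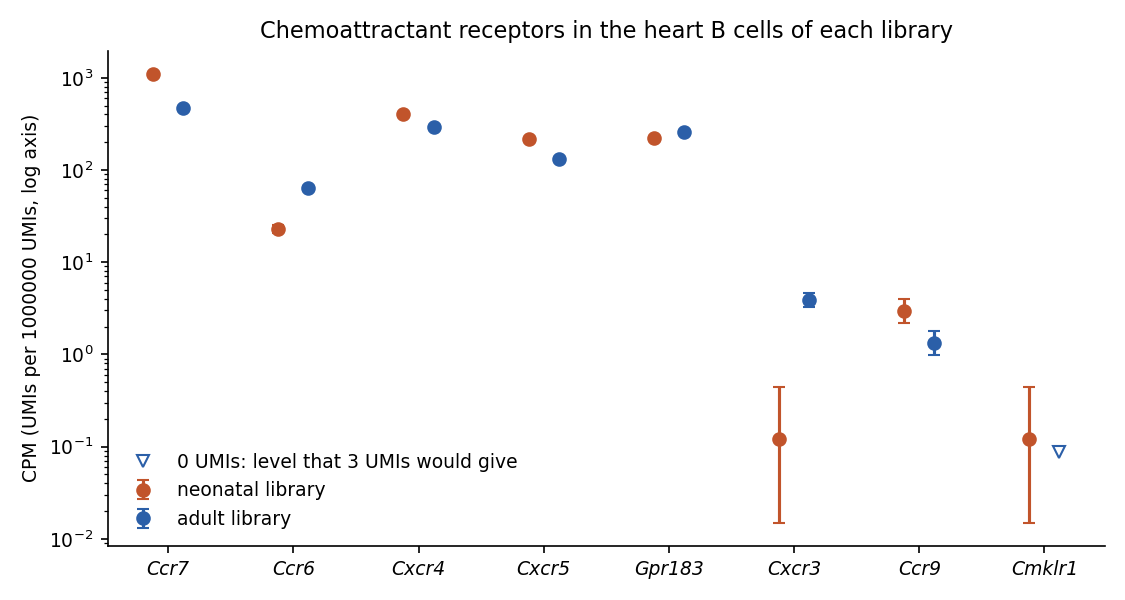
CPM, on a log axis, for the 8 receptors in the neonatal (orange) and adult (blue) library. Points are library levels with exact 95% Poisson intervals, and the open triangle marks the level that 3 UMIs would give where none was found. Ccr7 reads 1103 and 471 CPM and Ccr6 22.9 and 64.3 CPM, and the other receptors follow the order of the text.

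The number of cells with a receptor UMI depends on depth, so every cell was also thinned at random to 2000 UMIs. At this depth 81.5% (79.8 to 83.2) of the neonatal and 54.7% (53.1 to 56.3) of the adult cells held a Ccr7 UMI, and 33.3% (31.3 to 35.4) and 20.7% (19.4 to 22.1) held a Cxcr5 UMI. For Cxcr4 the shares were 51.8% (49.6 to 54.0) and 44.1% (42.5 to 45.7). Ccr7 thus differed by the most percentage points of the 8 receptors, and each of these pairs of intervals was apart. For Ccr6 the shares were 4.19% (3.37 to 5.14) and 11.0% (9.99 to 12.1), and for Gpr183 27.3% (25.4 to 29.3) and 37.3% (35.7 to 38.9), again without overlap and with the adult cells higher. Of the neonatal cells 4.33% and of the adult cells 5.51% held at least 3 Gpr183 UMIs, and 1.01% and 0.775% at least 5.

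At the same 2000 UMIs per cell, Cxcr3 was found in 0 of 2077 neonatal cells, which by the limit of 3 counts allows a share of up to 0.144%, with an exact 95% upper bound of 0.177%, and in 13 adult cells, 0.360% (0.192 to 0.615). Ccr9 was found in 8 neonatal and 4 adult cells, 0.385% (0.166 to 0.758) and 0.111% (0.0302 to 0.283), whose intervals overlap. Cmklr1 was found in no cell of either library at this depth.

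As sequenced, the shares were 96.0% and 81.4% for Ccr7, 68.7% and 50.9% for Cxcr5, 83.1% and 76.5% for Cxcr4, 13.3% and 33.1% for Ccr6, and 51.1% and 67.5% for Gpr183. Free RNA, as found in the near-empty droplets, would by itself give a Ccr7 UMI in 2.14% of neonatal and 1.79% of adult cells at 2000 UMIs, and less than that for each other receptor. Droplets of the same size without a Cd79a UMI numbered 14 in the neonatal library, with a median of 5975 UMIs, and 4 in the adult library, with a median of 7430 UMIs. Ccr7 was seen in 2 and 1 of them, Cxcr4 in 8 and 2, Gpr183 in 2 and 2, Cxcr3 in 1 and 1, Ccr9 in 0 and 2, Cmklr1 in 1 and 0, and Ccr6 and Cxcr5 in none. The Cxcr4 share in these few droplets was 57.1% in the neonatal library, against 83.1% of the cells as sequenced. For Cxcr3 and Ccr9 the few droplets without Cd79a held a UMI at least as often as the cells, of which 0.0963% and 1.86% had Cxcr3 and 1.01% and 0.609% Ccr9, except for Ccr9 in the neonatal library.

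**Figure D2:**
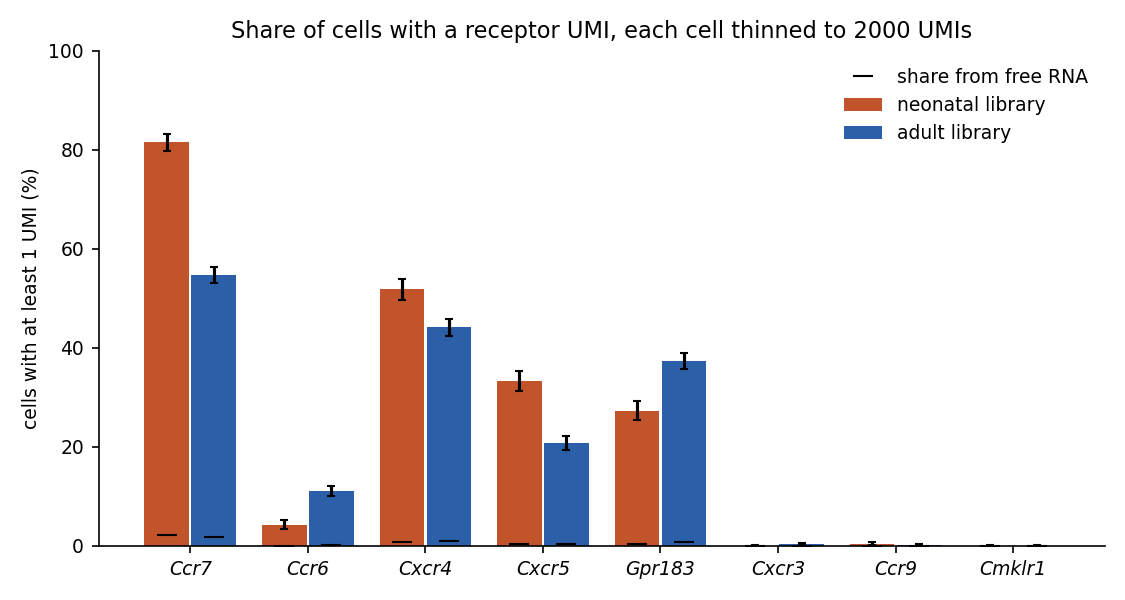
Percent of cells with at least 1 UMI of each receptor after every cell was thinned to 2000 UMIs, in the neonatal (orange) and adult (blue) library, with exact 95% binomial intervals and, as black dashes, the share that free RNA would give. Ccr7, Cxcr4 and Cxcr5 bars are taller in the neonatal library, and Ccr6 and Gpr183 bars in the adult library.

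The lower adult level of Ccr7 lay both in more cells without a UMI and in fewer cells with several. At 2000 UMIs, 42.4% of the neonatal cells held at least 3 Ccr7 UMIs, against 13.4% of the adult cells. No Ccr7 UMI was seen in 18.5% and 45.3% of cells. A cell held UMIs of 1.99 of the 8 receptors on average for the neonatal and 1.68 for the adult library, and none of the 8 in 6.31% and 14.4% of cells.

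Cxcr4, Cxcr5 and Gpr183 were each found more often in cells that also held Ccr7. Of the neonatal cells with a Ccr7 UMI, 54.3% (51.9 to 56.7) also held one of Cxcr4, against 40.6% (35.7 to 45.7) of those without, and in the adult library the values were 49.2% (47.0 to 51.4) and 37.9% (35.5 to 40.3). Gpr183 and Cxcr4 also went together in the adult cells, with Cxcr4 in 49.8% (47.1 to 52.5) of cells with a Gpr183 UMI and 40.7% (38.7 to 42.8) of the others. Cxcr5 did not show this with Gpr183, which was present in 37.6% (34.1 to 41.1) of adult cells with and 37.3% (35.5 to 39.1) of those without a Cxcr5 UMI. Adult cells with a Ccr6 UMI held Gpr183 in 43.8% (38.9 to 48.9), against 36.5% (34.9 to 38.2) of those without, and Ccr7 in 53.4% (48.4 to 58.4), against 54.9% (53.1 to 56.6). The Ccr7 intervals of adult cells with and without Ccr6 thus overlapped. These pairs share libraries and cells, and the part of the total RNA of a cell in them was not tested.

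The level of several receptors went with the depth of the cell. Neonatal Ccr7 read 1369 CPM in cells of 2000 to 4000 UMIs, 1320 CPM up to 8000, 995 CPM up to 16000 and 714 CPM in deeper cells, and adult Ccr7 read 699, 578, 405 and 415 CPM over the same ranges. Cxcr4 read 475, 458, 379 and 287 CPM in the neonatal and 479, 382, 237 and 247 CPM in the adult cells. Both receptors were lower in cells of at least 8000 UMIs than in shallower ones in each library. Cxcr5 read 239, 214, 207 and 221 CPM in the neonatal library and went the other way in the adult library, with 95.9, 111, 132 and 154 CPM. Gpr183 read 206, 251, 222 and 163 CPM in the neonatal and 373, 338, 228 and 216 CPM in the adult cells, and Ccr6 stayed between 21.1 and 27.5 CPM and between 48.4 and 66.7 CPM.

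Within each range of depth Ccr7 remained lower in the adult library, with log2 ratios from −1.30 to −0.78, and Cxcr5 likewise, from −1.31 to −0.53. Cxcr4 had a log2 ratio of 0.01 (−0.20 to 0.23) in cells of 2000 to 4000 UMIs and −0.68 (−0.77 to −0.59) in cells of 8000 to 16000 UMIs, so its difference was not detectable in the shallow cells. Gpr183 ranged from 0.04 (−0.07 to 0.15) in cells of 8000 to 16000 UMIs to 0.85 (0.54 to 1.18) in cells of 2000 to 4000 UMIs. Ccr6 had log2 ratios above 1 in the 3 deeper ranges, up to 1.65 in cells of 8000 to 16000 UMIs, and 0.81 (−0.04 to 1.80) in the shallow one, where the neonatal level rested on 12 UMIs in 124 cells.

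**Figure D3:**
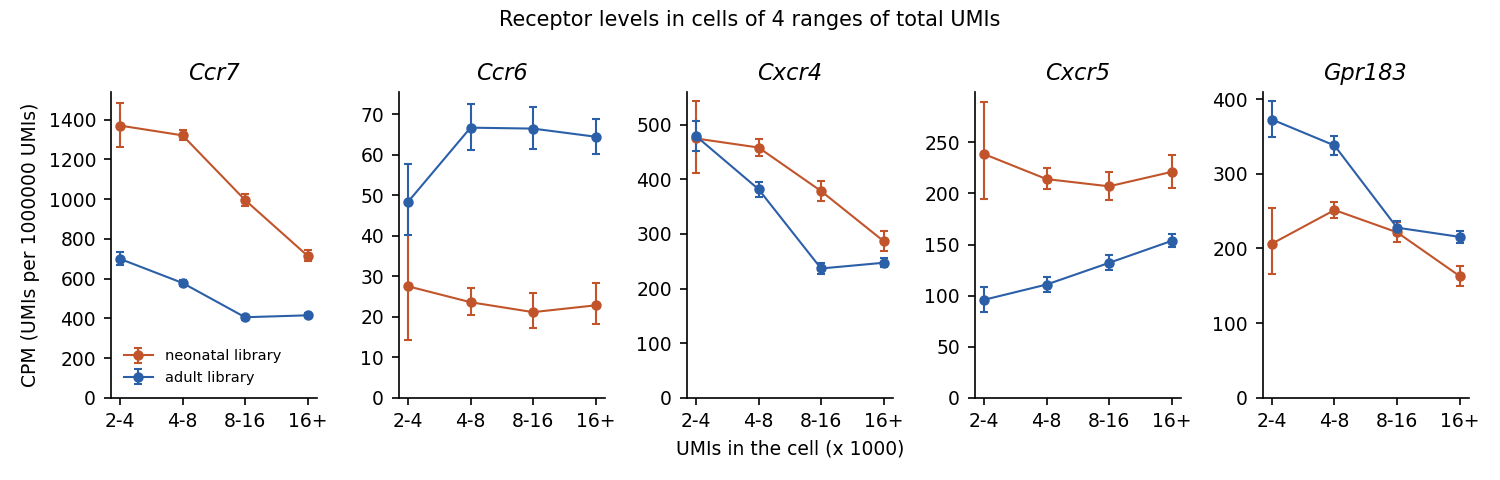
Level of 5 receptors, in CPM, in cells of 4 ranges of total UMIs (in units of 1000) in the neonatal (orange) and adult (blue) library, with exact 95% Poisson intervals. The Ccr7 and Ccr6 lines stay apart over all ranges, with overlapping intervals for Ccr6 in the shallow cells, and the Cxcr4 lines meet in the shallow cells, at 475 and 479 CPM.

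Cr2 encodes CD21 and Fcer2a encodes CD23, surface proteins that mature follicular B cells carry together and that transitional cells gain as they mature. By at least 1 UMI of each gene, the neonatal cells fell into 1032 with neither, 120 with Cr2 only, 702 with Fcer2a only and 223 with both, and the adult cells into 649, 330, 1260 and 1372. The group with both took 10.7% of the neonatal and 38.0% of the adult cells. Deeper cells more often show a UMI, and the median depth of the adult groups was 4654, 7553, 4602.5 and 9083 UMIs in that order, against 5566.5, 6481.5, 6136 and 7163 UMIs in the neonatal library. For the 5 receptors with enough UMIs, group levels and ratios are therefore also given for cells of 4000 to 8000 UMIs. That range narrows the differences in depth but does not match it. In it the adult medians were 4635, 5299.5, 4805.5 and 5639 UMIs in the same order. The neonatal ones were 5284, 5707.5, 5755 and 6011 UMIs. The part of the remaining difference in depth was not tested.

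The library difference of Ccr7, Ccr6 and Cxcr5 was present in all 4 groups. Adult over neonatal, the log2 ratio of Ccr7 was −1.30 in the cells with neither, −2.19 with Cr2 only, −1.12 with Fcer2a only and −1.31 with both. For Cxcr5 it was −0.93, −0.89, −0.75 and −0.76, and for Ccr6 0.84, 1.12, 1.01 and 1.32 in the same order. Cxcr4 read −0.55, −0.94, −0.31 and −0.68, while Gpr183 read 0.20, 0.25, 0.02 and 0.04. In the Gpr183 ratio the counting interval reached 0 in every group except that with neither (0.08 to 0.33). In cells of 4000 to 8000 UMIs the ratios over the 4 groups were −0.92, −1.63, −1.15 and −1.40 for Ccr7, −0.92, −1.28, −0.74 and −1.15 for Cxcr5, and 1.38, 1.43, 0.91 and 1.41 for Ccr6. Gpr183 then read 0.59 (0.40 to 0.79) with neither and 0.73 (0.37 to 1.10) with Cr2 only, but 0.09 (−0.04 to 0.21) with Fcer2a only and −0.01 (−0.21 to 0.19) with both. Cxcr4 read −0.11, −0.25, −0.35 and −0.40, and its interval reached 0 in the groups without Fcer2a. Among the cells with neither, 1 of 6 receptors tested was at least 1.5-fold higher in the adult library and 2 lower, against 5.38% and 20.6% of genes. With Cr2 only 1 of 5 was higher and 3 lower, against 9.45% and 21.8% of genes. With Fcer2a only 1 of 5 was higher and 2 lower, against 5.89% and 9.99%, and with both 2 of 6 were higher and 3 lower, against 9.69% and 11.6%.

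Ccr6 was higher in cells with both genes than in cells with neither in each library. In the neonatal library it read 15.6 CPM with neither, 25.3 with Cr2 only, 28.7 with Fcer2a only and 31.3 with both, a log2 ratio of both over neither of 1.01 (0.58 to 1.43). Adult cells read 27.8, 54.9, 57.9 and 78.0 CPM, a log2 ratio of 1.49 (1.23 to 1.76). Fcer2a only over Cr2 only was 0.08 (−0.18 to 0.34) in all adult cells and −0.54 (−0.99 to −0.08) in those of 4000 to 8000 UMIs. In cells of 4000 to 8000 UMIs the ratio of both over neither was 0.92 (0.21 to 1.59) for the neonatal and 0.95 (0.53 to 1.39) for the adult cells, while that of Fcer2a only over neither in the adult library was 0.13 (−0.31 to 0.59). Over all depths, the adult cells with neither held Ccr6 at 27.8 CPM, which lay between the neonatal cells with Cr2 only and those with both, with overlapping intervals. This order did not hold in cells of 4000 to 8000 UMIs. There the adult cells with neither read 47.2 CPM (35.7 to 61.1), above each neonatal group. The highest of these was that with both, at 34.2 CPM (22.4 to 50.1), with overlapping intervals.

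Gpr183 was higher in the groups with a UMI of Fcer2a than in cells with neither. In the neonatal library it read 164 CPM with neither and 162 CPM with Cr2 only, but 298 CPM with Fcer2a only and 262 CPM with both. Adult levels were 188, 193, 302 and 270.0 CPM. The log2 ratio of Fcer2a only over Cr2 only was 0.88 (0.64 to 1.13) for the neonatal and 0.65 (0.52 to 0.78) for the adult cells. In cells of 4000 to 8000 UMIs it was 0.81 (0.49 to 1.14) in the neonatal library but 0.17 (−0.04 to 0.38) in the adult one. The adult difference was thus not detectable in that range. Cr2 only over neither was −0.01 (−0.26 to 0.23) and 0.03 (−0.12 to 0.18). In cells of 4000 to 8000 UMIs Fcer2a only over neither was 0.90 (0.76 to 1.05) for the neonatal and 0.40 (0.22 to 0.58) for the adult cells, and the adult Cr2 only cells stood in between, at 0.23 (−0.02 to 0.48). Gpr183, Cr2 and Fcer2a are all in the list that the study chose on these libraries, which is not independent of this pattern.

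Ccr7 in the neonatal library read 965 CPM with neither, 1252 with Cr2 only, 1225 with Fcer2a only and 1197 with both, so that the 3 groups with a UMI of either gene lay close to each other and above the cells with neither. Cr2 only over neither was 0.38 (0.29 to 0.46). In the adult library the levels were 393, 274, 563 and 484 CPM, and Cr2 only over neither was −0.52 (−0.64 to −0.40). In cells of 4000 to 8000 UMIs the neonatal order held, with 1248, 1546, 1371 and 1357 CPM, but the adult levels were 658, 499, 618 and 516 CPM, and both over neither turned from 0.30 (0.23 to 0.37) to −0.35 (−0.48 to −0.22). The adult Cr2 only cells were below those with neither in both sets of cells, but with groups set on thinned cells the ratio was 0.18 (0.11 to 0.25).

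Cxcr4 in the neonatal library read 355, 389, 430 and 478 CPM over neither, Cr2 only, Fcer2a only and both, a log2 ratio of both over neither of 0.43 (0.33 to 0.53). It remained at 0.19 (0.03 to 0.36) in cells of 4000 to 8000 UMIs. In the adult library the levels were 243, 202, 347 and 297 CPM, and in cells of 4000 to 8000 UMIs they were 398, 378, 385 and 373 CPM, with every ratio to neither within its counting interval of 0. Cxcr5 read 207, 214, 209 and 248 CPM in the neonatal and 108, 116, 125 and 146 CPM in the adult library over the same groups. Its ratio of both over neither was 0.26 (0.12 to 0.39) and 0.43 (0.29 to 0.57), and 0.06 (−0.18 to 0.30) and −0.16 (−0.46 to 0.14) in cells of 4000 to 8000 UMIs. For these 2 receptors no adult ratio to neither was therefore detectable in that range of depth, while Fcer2a only over Cr2 only was 0.39 (0.01 to 0.79) for adult Cxcr5.

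In the neonatal library 2 of 5 receptors tested were at least 1.5-fold higher in cells with both than with neither and 0 lower, against 3.4% and 5.6% of genes. Fcer2a only over neither gave 2 higher and 0 lower, against 2.18% and 5.52%, and Cr2 only over neither 1 and 0, against 3.86% and 10.2%. They were Ccr6 in each comparison, and Gpr183 in both comparisons with Fcer2a. In the adult library 1 of 6 receptors was higher with both than with neither, against 7.37% of genes, and 0 lower, against 3.65%. Fcer2a only over neither gave 2 of 6 higher and 0 lower, against 5.2% and 4.37%, and Cr2 only over neither 1 of 5 and 0, against 3.27% and 2.88%. They were again Ccr6, and Gpr183 with Fcer2a only.

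**Figure D4:**
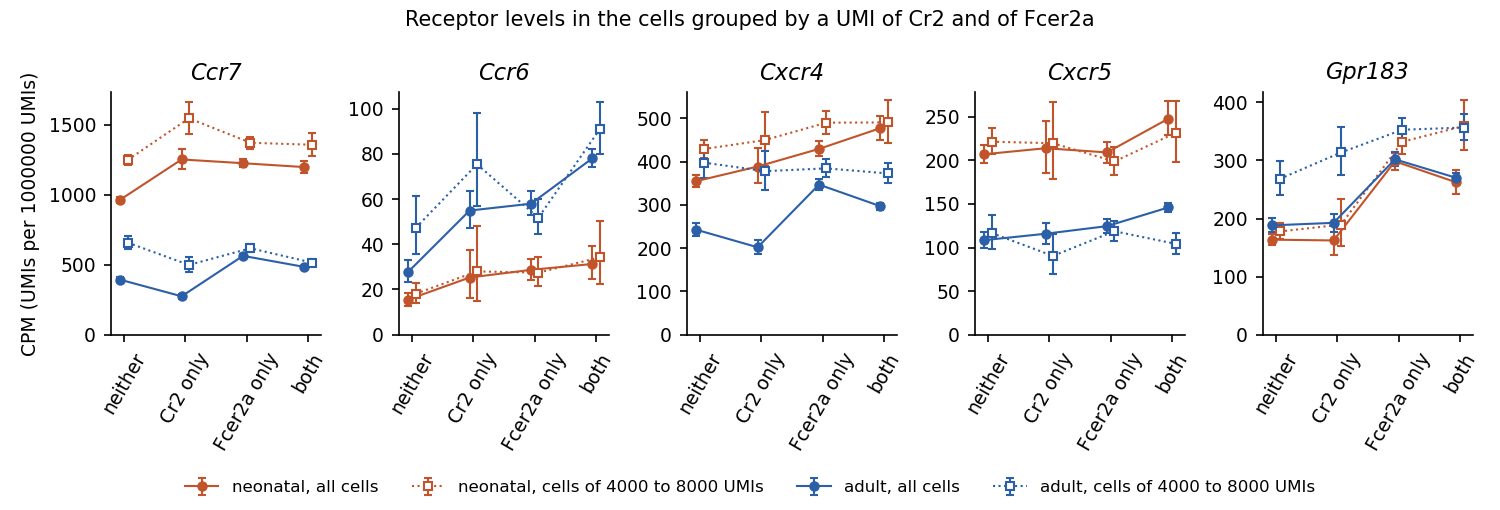
Level of 5 receptors, in CPM, in cells grouped by at least 1 UMI of Cr2 and of Fcer2a, in the neonatal (orange) and adult (blue) library, with exact 95% Poisson intervals. Filled circles are all cells and open squares cells of 4000 to 8000 UMIs. Ccr6 is higher with both genes than with neither in all 4 lines. Adult Ccr7 with neither reads 393 CPM in all cells and 658 CPM in cells of 4000 to 8000 UMIs.

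Vpreb3 is a gene of the VpreB family active in immature and transitional B cells. Among cells with neither Cr2 nor Fcer2a, those with a Vpreb3 UMI after thinning held more Ccr7 and Cxcr4 than the others. In the neonatal library 529 such cells and 503 others had Ccr7 at 1170 and 823 CPM, a log2 ratio of 0.51 (0.44 to 0.57), and in the adult library 172 and 477 cells had it at 731 and 326 CPM, 1.17 (1.02 to 1.31). For Cxcr4 the log2 ratios were 0.33 (0.21 to 0.44) and 0.98 (0.79 to 1.17). Gpr183 went in opposite directions, −0.34 (−0.52 to −0.17) for the neonatal and 0.63 (0.40 to 0.86) for the adult cells, and Cxcr5 did not differ beyond counting error. The cells with Vpreb3 after thinning were shallower, with medians of 5112 against 6546 UMIs and 4037.5 against 6097 UMIs. The others could still hold Vpreb3 UMIs as sequenced. The part of depth in these ratios was not tested.

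Cells with at least 3 of 8 B1 cell genes (Cd5, Itgam, Cd9, Zbtb32, Spn, S100a4, S100a6 and Bhlhe41) at 2000 UMIs had less Ccr7, Cxcr4 and Gpr183 than the others. They numbered 33 for the neonatal and 73 for the adult cells. Their median depths were 17860 and 15808 UMIs, against 5957.5 and 5982 UMIs in the others. A minimum of 8000 UMIs does not match depth above it, and the part of depth in these ratios was not tested. Among cells of at least 8000 UMIs, Ccr7 read 310 CPM in 31 neonatal cells of this kind and 923 CPM in the other 515, a log2 ratio of −1.57 (−1.78 to −1.37). Adult cells read 266 CPM in 71 cells and 420 CPM in 1323, a log2 ratio of −0.66 (−0.81 to −0.51). Cxcr4 had log2 ratios of −0.99 (−1.26 to −0.72) and −0.52 (−0.70 to −0.33), and Cxcr5 −0.22 (−0.49 to 0.05) and −0.21 (−0.43 to 0.01). Gpr183 had log2 ratios of −0.33 (−0.63 to −0.04) and −0.31 (−0.50 to −0.13). The difference of Cxcr5 was not detectable at this depth. Ccr6 had log2 ratios of −0.93 (−2.16 to 0.09) and −0.55 (−0.93 to −0.19).

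Adult Cxcr3 lay mostly in deep cells. For Ccr9, 27 of 46 adult and 21 of 49 neonatal UMIs were in cells of at least 16000 UMIs. Of the 135 adult Cxcr3 UMIs, 100 were in cells of at least 16000 UMIs, the 67 cells with Cxcr3 had a median of 25253 UMIs, and 35 of them held 1 UMI. Among adult cells of at least 16000 UMIs, at least 2 UMIs of macrophage and monocyte genes were present in 19 of 43 cells with Cxcr3, 44.2%, and in 51 of 447 cells without, 11.4%. For the T cell genes the counts were 8 of 43 and 53 of 447, for the NK cell genes 3 of 43 and 1 of 447, and for the plasma cell genes 24 of 43 and 204 of 447. Without cells with markers of other types, the adult share with Cxcr3 after thinning was 0.159%, against 0.360%. With the endothelial list left out of those markers, the share was 0.214%. The receptors with a higher adult share and intervals apart numbered 2 in either of these settings, against 3. They also numbered 2 without the 5% of cells with most UMIs, with male neonatal cells and with thinning to 1000 UMIs. They stayed at 3 with another random thinning, as sequenced, and without shared barcodes. The share of all genes with intervals apart was not computed, so these counts describe the receptors only. The part of these markers in the Cxcr3 level was not tested. Both neonatal cells with Cxcr3 held at least 2 UMIs of T cell, of macrophage and of NK cell genes.

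Adult Cxcr3 was spread over the groups. It read 4.63 CPM with neither, from 22 UMIs, 3.48 CPM with Fcer2a only, from 28 UMIs, and 4.39 CPM with both, from 82 UMIs, with overlapping intervals. With Cr2 only there were 3 UMIs, 0.952 CPM (0.196 to 2.78). Ccr9 had 38 of its 49 neonatal UMIs in cells with neither gene, 5.05 CPM (3.57 to 6.93), against 10 UMIs with Fcer2a only, 1.84 CPM (0.882 to 3.38). Adult cells read 3.58 CPM with neither and 0.803 CPM with both. Neonatal cells with both held 1 UMI, 0.401 CPM, below the 1.20 CPM that 3 UMIs would give. The Ccr9 level was higher with neither gene than with both in each library, but from few UMIs, 38 against 1 and 17 against 15. Neither comparison had enough UMIs for a call. Of the 14 deep adult cells with Ccr9, 12 held at least 2 plasma cell UMIs, against 216 of 476 deep cells without it.

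Other chemoattractant receptors also differed between the libraries in both directions. Of 30 on a list that holds none of the 8, 14 had at least 50 UMIs, 4 were at least 1.5-fold higher in the adult and 6 in the neonatal cells, against 7.82% and 12.2% of all genes tested, with a median log2 ratio of −0.31. Gpr34, a lysophosphatidylserine receptor, was at 1.46 and 5.52 CPM, a log2 ratio of 1.91 (1.30 to 2.59), and Ccr1, a receptor of inflammatory chemokines, at 5.49 and 14.9 CPM, 1.44 (1.12 to 1.78). Ptafr, the receptor for platelet-activating factor, was at 7.13 and 0.751 CPM, −3.25 (−3.92 to −2.62), and the fractalkine receptor Cx3cr1 at 2.62 and 0.549 CPM, −2.26 (−3.12 to −1.45). Cx3cr1 is known from macrophages and monocytes, whose marker genes also summed to more in the neonatal cells, and their part was not tested. S1pr1, which guides lymphocytes out of lymphoid organs and which was singled out here after its values were seen, fell on the side of Ccr7, at 359 and 178 CPM, a log2 ratio of −1.01 (−1.06 to −0.96).

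Most ligands of the 8 receptors had few or no UMIs in these cells. Of 17 ligand genes 16 were in the files, 5 of these had no UMI in either library and 7 had at least 50, of which 1 was at least 1.5-fold higher in the adult and 4 in the neonatal cells, against the same 7.82% and 12.2%, with a median log2 ratio of −0.80. Cxcl10, a ligand of Cxcr3, had 0 UMIs in the neonatal cells and 446 UMIs in 58 adult cells, 12.9 CPM. The adult level was 70.4-fold the neonatal level that 3 UMIs would give, and the exact 95% lower bound of the log2 ratio was 5.83. The most in 1 cell was 57 UMIs. Ccl25, the ligand of Ccr9, was at 10.1 and 9.68 CPM, a log2 ratio of −0.06 (−0.33 to 0.22). Ccl6 and Ccl9, chemokines of myeloid cells, stood at 6.52 and 0.116 CPM and at 3.23 and 0.375 CPM, in 14 and 2 cells and in 13 and 2 cells. Of the 4 genes that make or break down oxysterols, only Cyp27a1 had enough UMIs, at 5.12 and 4.01 CPM, a log2 ratio of −0.35 (−0.75 to 0.06), and Ch25h, whose product is the precursor of the Gpr183 ligand, had 0 and 1 UMIs.

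The signalling genes behind the receptors are given beside the shares of all genes. All 20 genes of Gi signalling to migration were tested, 0 were at least 1.5-fold higher in the adult cells and 2 in the neonatal cells, against 7.82% and 12.2% of all genes, and their median log2 ratio was −0.20. Those 2 were Pik3r5, a subunit of the PI3-kinase that G proteins activate, at 10.5 and 5.31 CPM with a log2 ratio of −0.99 (−1.30 to −0.68), and Rasgrp2, an activator of Rap1, at 277 and 169 CPM with −0.71 (−0.77 to −0.66). Upward, Pik3cg had 0.25 (0.07 to 0.43) and Plcb2 0.15 (−0.08 to 0.37). Of 15 tested genes that damp the signal, Rgs3 with 0.78 and Rgs10 with 0.77 (0.43 to 1.12) were higher in the adult and Rgs13 with −1.03 (−1.45 to −0.61) in the neonatal cells, and the kinase gene Grk2 had −0.54 (−0.60 to −0.48). These 2 and 1 of 15 stand against the same shares, and the median of that list was −0.18.

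Over the 8 levels of 4 groups in 2 libraries, the log2(CPM + 1) of Ccr7 ran closely with Cxcr4, with a Pearson r of 0.94, and with Cxcr5, 0.94. Its r with Ccr6 was −0.60 and with Gpr183 0.06. Of 5370 genes with at least 20 CPM, those most like Ccr7 were Crebrf, A430078G23Rik and Tcp11l2 with r from 0.996 to 0.998. For Ccr6 they were Rasgrp3 (0.993), a Ras activator downstream of the B cell receptor, Lmo2 (0.982) and Lpcat1 (0.978). For Cxcr4 they were Rsrp1, Acbd3 and Rlim, and for Cxcr5 Midn, Mta2 and Ubap2l, with r from 0.989 to 0.995. Gpr183 ran most closely with Stat4 (0.982), B4galnt1 (0.963) and Fcer2a (0.962), the last of which sets the groups. These are descriptions over 8 points that share 2 libraries and their depth.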

How the data were processed

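B cells sorted from the hearts of neonatal and adult mice were measured as 1 Chromium Single Cell 3′ (version 3) library per age. The authors aligned reads to mm10 with Cell Ranger, version 3.1.0 in the Methods and 3.0.2 in the file headers, and deposited UMI counts per gene and droplet with no normalization or selection of cells. The rows of 3 antibodies held 3 and 2 UMIs and were not used. Everything after the counts used scipy 1.17.1, numpy 2.4.6, pandas 2.3.3 and matplotlib 3.10.9 in Python 3.11.15. CPM is the sum of a gene's UMIs over the cells per 1000000 of their total. Log2 ratios carry exact conditional binomial intervals, CPM exact Poisson intervals and shares exact Clopper-Pearson intervals, all at 95% and for counting error only. The ratio intervals were tested on simulated counts that held counting error only, and the thinning on made-up cells. Called means at least 1.5-fold among genes with at least 50 UMIs over both sides. Free RNA came from droplets of ranks 45000 to 90000 by UMIs, with means of 55.9 and 92.0 UMIs. Named genes were the 8 receptors, per list the 2 genes with the highest and the 2 with the lowest ratio and the 3 genes most like each receptor with at least 20 CPM. The 8 receptors and the lists were chosen with earlier results of these data known. Splits by depth range, B1 genes and Vpreb3 and the motif search were added after the data were seen. Gene positions are from GENCODE on GRCm38.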

Additional observations from a re-analysis of the deposited data

Results flagged for a closer look

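The Ccr7 level of cells with Cr2 only, relative to cells with neither Cr2 nor Fcer2a, lay on opposite sides in the libraries, with a log2 ratio of 0.38 among neonatal and −0.52 among adult cells. Each interval left out 0, and the difference between the libraries was not tested, since each age has 1 library. The adult value held its sign in cells of 4000 to 8000 UMIs, at −0.40, and turned to 0.18 with groups set on thinned cells.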

How the results depend on the processing

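No paired analysis was possible because each age has 1 library and the labels give no replicate numbers, so no library could be left out either. Over the other ways of choosing and scaling cells, the log2 ratio of adult over neonatal ranged from −1.31 to −0.96 for Ccr7, −0.95 to −0.26 for Cxcr5, −0.65 to −0.26 for Cxcr4, 0.16 to 0.43 for Gpr183, 1.31 to 2.17 for Ccr6, −1.80 to −0.92 for Ccr9 and 4.02 to 5.88 for Cxcr3, with no change of sign. A limit of 5% mitochondrial UMIs left 60 and 156 cells. The count of receptors higher in the adult library, 2, was 1 with that limit, without cells with markers of other types, and in cells of 4000 to 8000 UMIs, each of which leaves too few Cxcr3 UMIs. The count higher in the neonatal library, 3, was 2 in those same settings and after dividing by the median ratio of all genes, which shifted each log2 ratio by 0.13 and put Cxcr5 at −0.55, under 1.5-fold. With the 5% limit Cxcr5 was also under 1.5-fold, at −0.26, while Cxcr4 was past it, at −0.65.

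Several group results of the adult library, and some of the neonatal one, changed with the choice of cells and groups. The part of depth in this was not tested. In cells of 4000 to 8000 UMIs, both over neither was −0.35 for Ccr7, −0.094 for Cxcr4 and −0.16 for Cxcr5, Fcer2a only over neither was −0.091 for Ccr7 and −0.050 for Cxcr4, and the count of receptors higher with Fcer2a only was 0. With the mean of the cells' CPM, both over neither was −0.11 for Ccr7 and −0.0017 for Cxcr4, and that count was 1. Without cells with markers of other types, Fcer2a only over neither was −0.024 for adult Cxcr5, 1 receptor was higher with Fcer2a only and 1 lower with Cr2 only. With groups set on thinned cells, Cr2 only over neither was 0.18 for adult Ccr7 and 0.18 for adult Cxcr4, and both over neither was −0.57 for neonatal Cxcr5. The counts with Fcer2a only were then 1 higher in the neonatal library, and 0 higher and 1 lower in the adult library, and with Cr2 only 0 higher and 1 lower in the adult library. With groups set at 2 UMIs, Cr2 only gave 0 higher and 1 lower in the neonatal and 2 lower in the adult library. Leaving the endothelial list out of the markers of other types gave 0 higher with Cr2 only in the neonatal library, and male neonatal cells gave 1 higher with both. With genes of at least 1 UMI, the lists had 16 other receptors, 8 ligands and 2 damping genes higher in the neonatal cells. These include genes with hardly any UMIs, such as Ccr3 with 1 neonatal and 0 adult UMIs. No share of all genes was computed for the counts under these other settings, so they describe the listed genes only. At a fold of 2, 0 Gi signalling genes were higher in the neonatal and 0 damping genes in the adult cells, and with median-ratio scaling 1 Gi signalling gene was higher in the neonatal cells. The sign of the ratios of Ccr6, and of those of Gpr183 with Fcer2a, held in all these settings, but not always beyond counting error. Adult Ccr6 with Fcer2a only over neither was 0.13 (−0.31 to 0.59) in cells of 4000 to 8000 UMIs. With groups set on thinned cells, adult Ccr6 with both over neither was 0.57, against 1.49.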
